A study of Zea mays with 10 samples.

Results

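The clones described here were those in which the F1 hybrid lay between its inbred parents B73 and H99 on the arrays as deposited. A clone is 1 cDNA fragment spotted 3 times. It was kept if it had a value on all 10 arrays, if its mean log2 ratio over the 5 arrays that paired B73 with the hybrid (L1) and that over the 5 arrays that paired H99 with the hybrid (L2) had opposite signs, and if each mean was at least 0.15 in size. The rule kept 155 of 5400 clones, which was 2.96% of the 5240 clones with a value on all arrays and 6.39% of the 2427 of those whose means had opposite signs. In 96 of them L1 was negative and L2 positive, called the first set below, and in 59 L1 was positive and L2 negative, called the second set. The clones were thus chosen by their measured L1 and L2, and both means and everything computed from them are given as a description.

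The RNA came from immature ears of maize at stage V15, grown in the open field, from B73, H99 and the F1 hybrid of B73 and H99. The labels name no further allele or treatment in any group. Each genotype was a bulk of 10 plants harvested over 3 days, and each labelling used 1 microgram of poly(A) RNA from a single preparation made from at least 3 extractions. On 3 forward arrays per inbred the hybrid was labelled with Cy3 and the inbred with Cy5, and on 2 reversed arrays the dyes were exchanged. The 5 arrays of an inbred are therefore labellings of the same RNA, and errors and p-values hold what labelling and hybridisation add, not how plants vary. The deposited values are ratios without levels, so that the labelled tissue could not be checked against its marker genes.

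The ear is the female inflorescence of maize, and the immature ear is the stage at which its meristems lay down the rows of spikelets. When a hybrid is crossed from inbreds whose transcript levels differ, a level midway between the parents is called additive, a level equal to one parent is called dominant, and a level outside both parents is called overdominant. The design text measures this with a, the size of the parental difference (L2 minus L1, halved), and d, the distance of the hybrid from the parental midpoint (L1 plus L2, halved). Opposite signs of L1 and L2 make the size of d smaller than that of a, so that no clone chosen in this way could show overdominance.

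The direction of each set depends on the numerator of the deposited ratio, which the files do not settle. With the hybrid over the inbred, as the design text defines L1 and L2, the first set holds transcripts higher in B73 than in the hybrid and higher in the hybrid than in H99, and the second set the opposite order. With the inbred as the numerator the order of the parents is exchanged, while the hybrid stays between them. That position also rests on the reversed arrays having been turned to the forward direction before deposit, which is not stated. With the reversed arrays of both inbreds turned, 94 clones met the rule, 17 in the first set and 77 in the second, and 13 of them were among the 155.

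The spread of the ratios differed between the inbreds. Over the 5240 clones the SD of L1 was 0.229 and that of L2 was 0.112, so that L2 set the limit for most clones. Across clones, correlations between 2 forward B73 arrays were 0.76 to 0.81, and those between a forward and a reversed B73 array were 0.38 to 0.54. Between 2 forward H99 arrays they were 0.34 to 0.62, and between a forward and a reversed H99 array -0.17 to 0.22. These correlations are across clones on arrays that share the same RNA pools, and are given as a description. Between 0.253% and 2.31% of spots were missing per array, and 138 of the 155 clones had all of their 30 spots. In all 155, L1 and L2 had the clone's signs in each of its 3 spots.

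**Figure D1:**
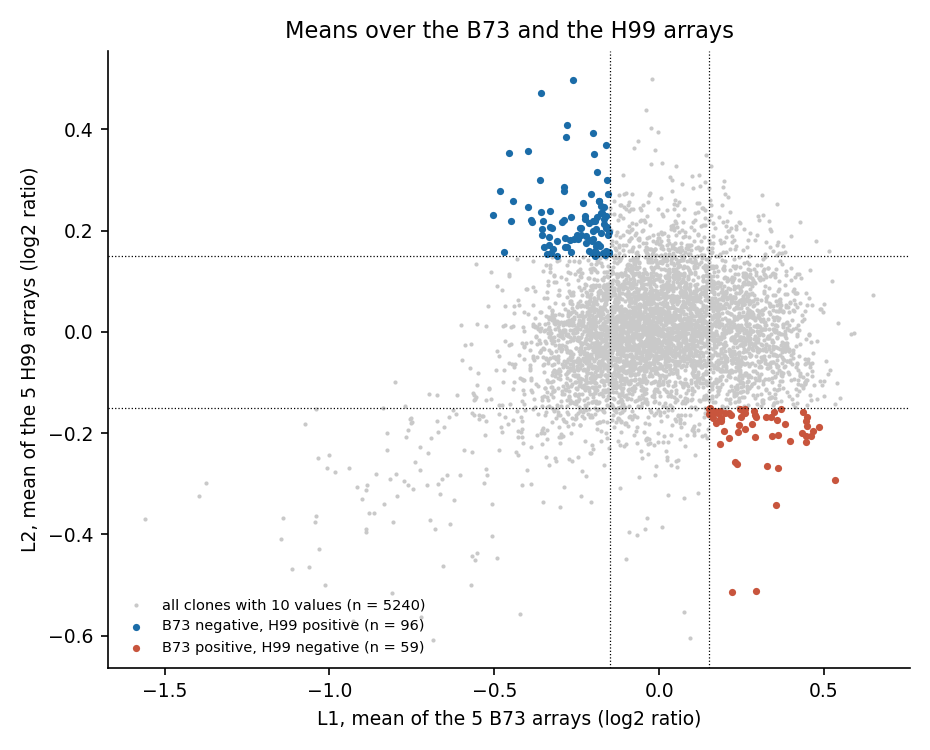
Mean log2 ratio over the 5 B73 arrays (L1, horizontal axis) against that over the 5 H99 arrays (L2, vertical axis) for each of the 5240 clones with 10 values; dotted lines mark 0.15 in size. The 96 clones of the first set fill the upper left corner and the 59 of the second set the lower right corner, both close to the lines.

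In the first set, L1 ranged from -0.50 to -0.15 with a median of -0.22, and L2 from 0.15 to 0.50 with a median of 0.21. Divided by the size of a, d had a median of -0.07 and ran from -0.50 to 0.40. By the smaller of both means the hybrid lay closer to H99 in 62 of these clones and closer to B73 in 34. In the second set, L1 ranged from 0.15 to 0.53 with a median of 0.26, and L2 from -0.51 to -0.15 with a median of -0.18. Here d over the size of a had a median of 0.17. The hybrid lay closer to H99 in 51 of these 59 clones and closer to B73 in 8. Over all 5240 clones L2 was the smaller mean in 3862, so that closeness to H99 was common outside both sets too. In the second set the reversed H99 mean had the sign opposite to L2 in 37 clones. On the forward arrays alone the medians of that set's clone means were 0.33 for B73 and -0.33 for H99. Closeness is thus given for means over both dye orientations, and was not counted per orientation.

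The 2 members nearest to the threshold were the unnamed clones 13450, with an L1 of -0.19 ± 0.23 and an L2 of 0.15 ± 0.081, and 6472, with -0.31 ± 0.37 and 0.15 ± 0.057 (SD, n = 5 arrays each). Just outside lay the unnamed clone 6787, with an L1 of 0.20 ± 0.10 and an L2 of -0.15 ± 0.19, and TUA1 clone 9682, with -0.15 ± 0.19 and 0.23 ± 0.12. Clones are numbered by the identifier of the first of their 3 spots. At a threshold of 0.10 the rule kept 448 clones, and at 0.20 it kept 50, with 34 in the first set and 16 in the second.

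Across all 5357 clones tested with limma, L1 passed a Benjamini-Hochberg adjusted p of 0.05 in 41.7%, L2 in 1.23%, d in 25.2% and a in 20.3%. Among the 155 clones, L1 passed in 112, L2 in 14, d in 2 and a in 146. Since the rule used these means, nothing is read from those counts. L1 and L2 both passed, with opposite signs, in 10 clones, which were all of the clones that did so in the whole table (0.187%). The rule chose clones on the same means, so that nothing is read from this count either. In the other 145 the hybrid's difference from at least 1 parent did not pass its own test. Of the 10 clones, 9 were in the first set, among them GPC1 clone 5149 and gpc2 clone 3640, and 1, the unnamed clone 12172, was in the second.

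On single arrays the signs held in part of the clones. The B73 and the H99 arrays did not overlap in 64 clones of the first set and 34 of the second, beside 11.7% of all clones with 10 values. Every B73 array had 1 sign and every H99 array the other in 40 clones of the first set and 6 of the second. Over all 5240 clones with 10 values this held in 122. In the first set 73 of 96 clones had a positive value on all 5 H99 arrays, and in the second set 12 of 59 had a negative value on all 5, beside 871 of all 5240 with 1 sign on all 5. The members' counts are not independent of the rule, which used the means over these same arrays. No excess over all clones is read from them.

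**Figure D2:**
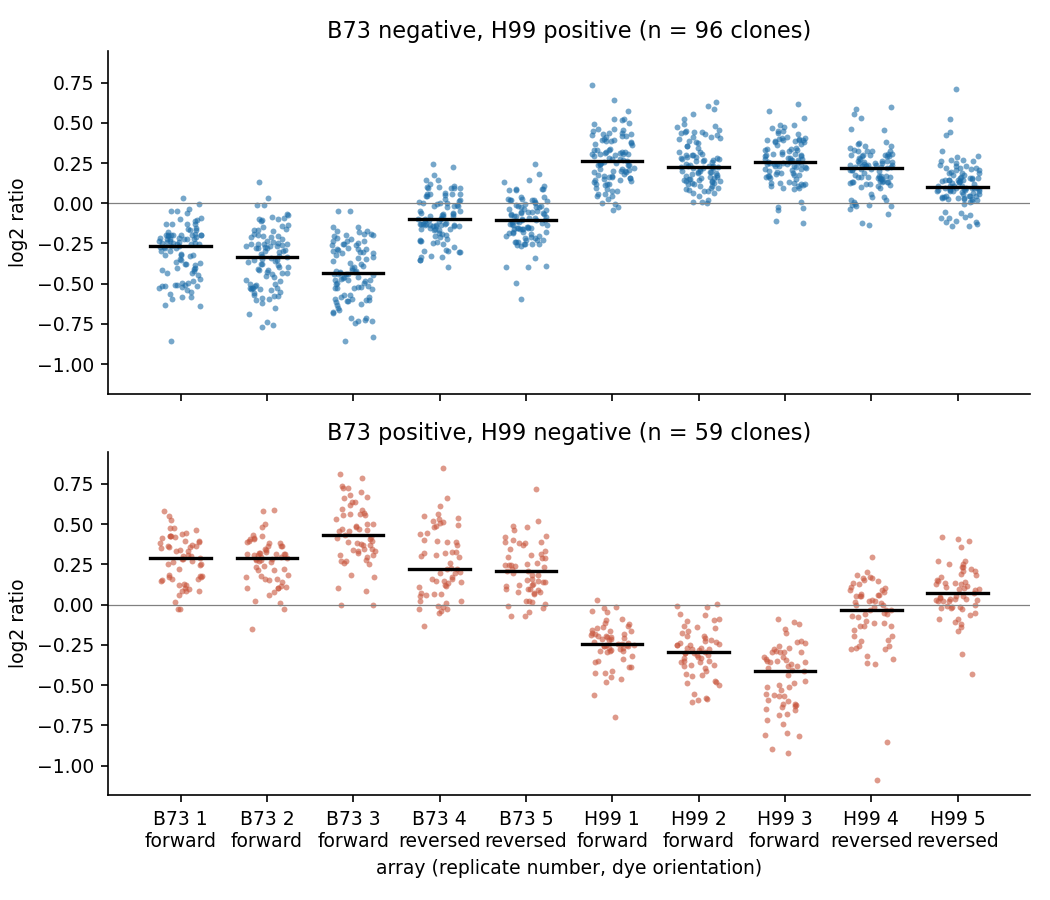
Log2 ratio of each clone on each of the 10 arrays, with the first set above and the second set below; points are clones and black lines are medians over the clones of a set. In the second set the medians of the forward H99 arrays lie below 0, while those of the reversed H99 arrays lie near 0.

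Per dye orientation, the forward arrays carried both signs in all 155 clones. In the first set the median of the clones' B73 means was -0.33 on the forward arrays and -0.11 on the reversed arrays, and that of their H99 means was 0.25 and 0.16. The reversed B73 mean kept the sign of L1 in 72 of 96 clones (75.0%, beside 77.8% of all 5240), and the reversed H99 mean kept the sign of L2 in 87 (90.6%, beside 67.5% of all). In the second set the medians for B73 were 0.33 forward and 0.22 reversed, and those for H99 -0.33 forward and 0.03 reversed. The reversed B73 mean kept its sign in 56 of 59 clones (94.9%) and the reversed H99 mean in 22 (37.3%). Thus 63 clones of the first set and 19 of the second had the hybrid between its parents in each dye orientation taken alone. Over all 5240 clones, 643 had B73 and H99 means of opposite sign, in the same direction, in each orientation. The members' shares and counts are not independent of the rule, since the reversed arrays entered both means.

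**Figure D3:**
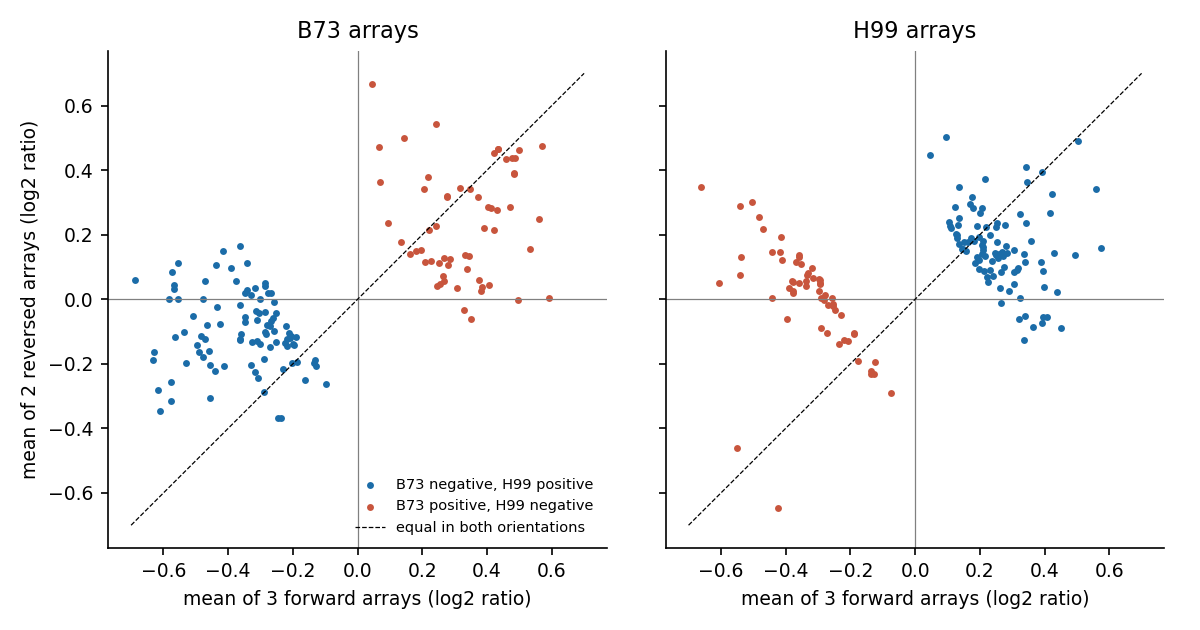
Mean of the 3 forward arrays (horizontal axis) against mean of the 2 reversed arrays (vertical axis), both as log2 ratios, for B73 on the left and H99 on the right; the dashed line marks equal values. In the H99 panel 37 of the 59 clones of the second set lie above 0 on the reversed arrays although all lie below 0 on the forward arrays.

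The difference between both dye orientations within an inbred was tested with limma on 4 means, over all 5357 clones. The rule used means over 3 forward and 2 reversed arrays, with which this difference has no sampling covariance if all arrays have the same spread. In B73, 34 of 96 clones of the first set passed (35.4%), all with forward arrays below reversed arrays. Over all clones 15.4% passed in either direction and 8.49% in that direction. In some of the 34 the reversed B73 mean lay above 0, such as 0.11 in clone 6304 and 0.06 in clone 6193. In the second set 10 of 59 passed, 9 with forward arrays above reversed arrays, beside 6.93% of all clones in that direction, and 1 with forward arrays below them. The forward B73 arrays had the wider spread, and once all arrays were scaled to 1 spread the counts were 2 of 96 and 1 of 59, beside 1.31% of all clones. Without B73 array 4, 5 of the 155 passed in place of 44.

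In H99, 15 of 59 clones of the second set passed (25.4%), all with forward arrays below reversed arrays, beside 4.31% of all clones in either direction and 3.21% in that direction. In the first set 5 of 96 passed (5.21%), all with forward arrays above reversed arrays, beside 1.1% of all clones in that direction. With all arrays scaled to 1 spread 34 of 59 clones of the second set passed, 33 of them with forward arrays below reversed arrays, and 15 of 96 of the first set, 13 of them with forward arrays above. Over all clones 14.9% then passed, 9.03% with forward arrays below and 5.88% with forward arrays above. Without H99 array 5 limma called 0 of all clones, with 30 of the 59, 13 of the 96 and 638 of all 5355 at an unadjusted p under 0.05. Without moderation of the variances it also called 0, with 37 of the 59, 23 of the 96 and 958 of the 5357 at that unadjusted p. The spreads of the arrays were not equal, and the clones were chosen on the unscaled values in either case. The part of that choice in the members' counts was not tested, and no excess over all clones is read from them. The orientation difference of H99 minus that of B73 passed in 16 clones of the first set, all positive, and in 7 of the second, all negative, beside 3.92% of all clones, 1.59% positive and 2.33% negative. With all arrays scaled to 1 spread limma called 0 of the 155 for this contrast, beside 0.597% of all clones. At an unadjusted p under 0.05 there were then 31 of the 96 and 25 of the 59, beside 1193 of the 5357. The part of the dyes in these differences was not tested.

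A choice on 1 orientation could be read on the other. On the forward arrays alone 530 clones with reversed values met the rule, 179 with the signs of the first set and 351 with those of the second. On the reversed arrays, which that choice did not use, both signs held in 75 of the 179 (41.9%) and in 43 of the 351 (12.3%), beside 23.8% of the 2707 clones with opposite signs on the forward arrays. The reversed H99 mean kept its sign in 64.2% of the former and 17.7% of the latter, beside 38.1% of the 2707. The shares of the 2707 hold both directions together and have no threshold. When the reversed arrays chose, 60 clones met the rule and the forward arrays kept both signs in 33 (55.0%), beside 33.8% of the 1903 clones with opposite signs on the reversed arrays. Only 14 clones met the rule in each orientation separately, 13 with the signs of the first set and 1 with those of the second. A choice made on 1 orientation was therefore repeated more often for the first set than for the second in these arrays, and this difference in shares was not tested.

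Of the 155 clones, 27 had a gene name and belonged to 18 genes. Named clones made up 17.4% of the members, and 788 of the 5240 clones with 10 values had a name. In the first set 18 clones named 9 genes, and in the second 9 clones named 9 other genes. No gene had clones in both sets.

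**Figure D4:**
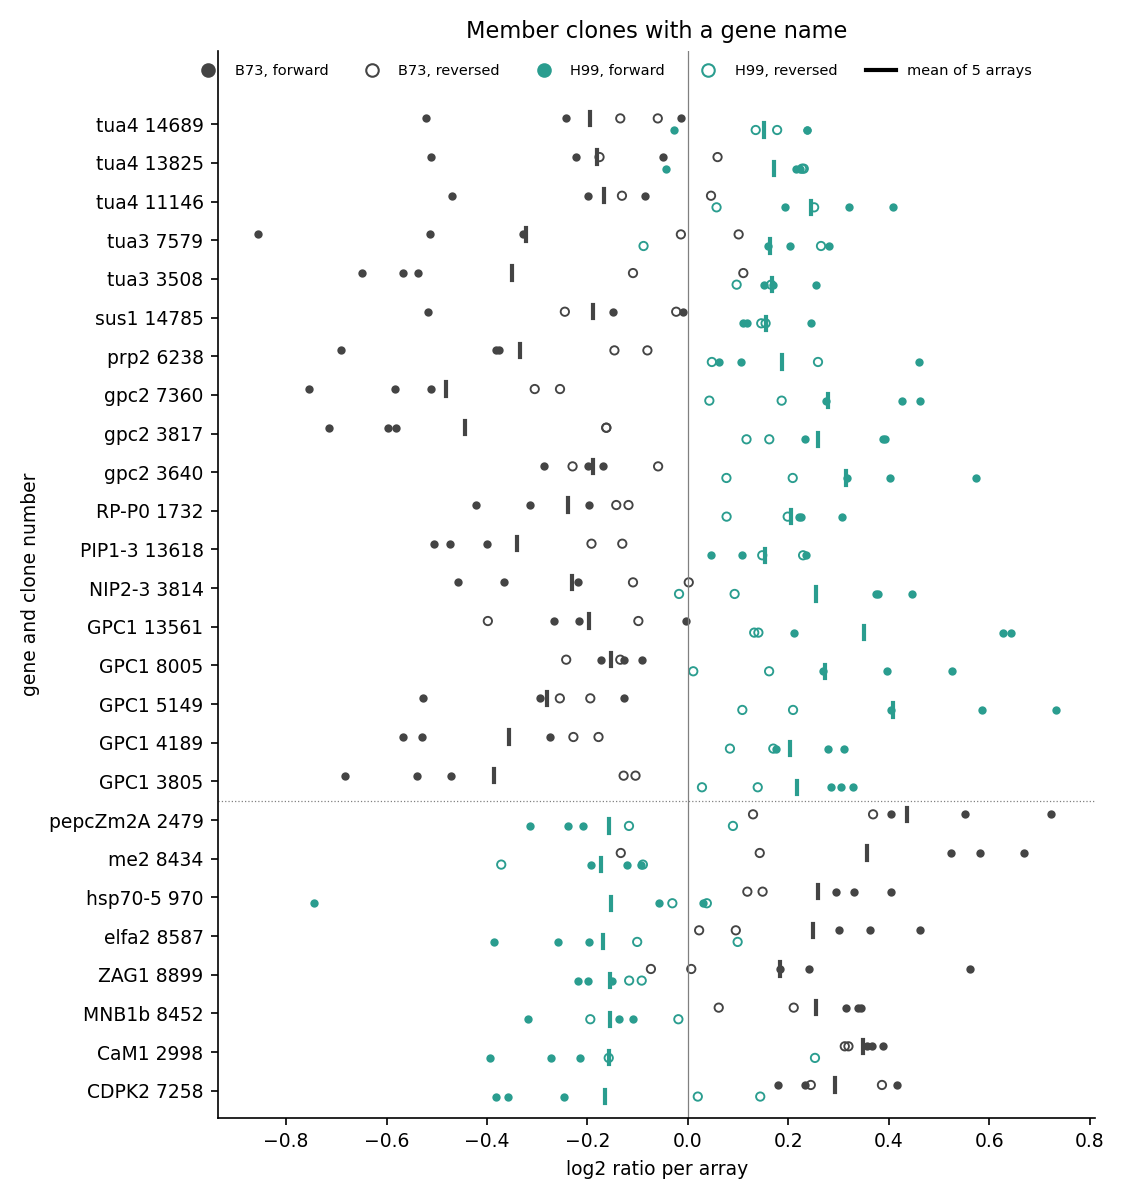
Log2 ratio on each array (points) and mean of 5 arrays (bars) for the member clones with a gene name described in the text, labelled by gene and clone number; filled points are forward arrays, open points reversed arrays, dark points B73 and green points H99. The first set lies above the dotted line and the second below it.

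The largest named group of the first set was cytosolic glyceraldehyde-3-phosphate dehydrogenase, which oxidises a triose phosphate in glycolysis. GPC1 had 5 of its 10 clones in the set and gpc2 3 of its 7, so that 8 of the 19 clones on the array for 3 GAPDH genes were members, and all had the same signs. GPC1 clone 5149 had values of -0.13, -0.29, -0.53, -0.19 and -0.26 on B73 arrays 1 to 5 and of 0.73, 0.58, 0.40, 0.21 and 0.11 on H99 arrays 1 to 5. All 10 arrays had the signs of the set, the B73 and H99 arrays did not overlap, and the reversed H99 arrays were the lowest of their group. Its L1 was -0.28 ± 0.15 and its L2 0.41 ± 0.26 (SD, n = 5 arrays each), with an a of 0.34 (SE 0.057). It was 1 of the 2 named clones that also met the rule on the reversed arrays alone.

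The gpc2 clones 7360 and 3817 had the lowest L1 of the 27 named members. Clone 7360 had values of -0.51, -0.75, -0.58, -0.30 and -0.25 on the B73 arrays and of 0.46, 0.43, 0.27, 0.19 and 0.04 on the H99 arrays. Clone 3817 had -0.58, -0.60, -0.71, -0.16 and -0.16 on the B73 arrays and 0.39, 0.23, 0.39, 0.12 and 0.16 on the H99 arrays. In both clones no B73 value reached an H99 value, and the 3 forward arrays were further from 0 than the 2 reversed arrays in each inbred. Their L1 was -0.48 ± 0.20 and -0.44 ± 0.26 and their L2 0.28 ± 0.17 and 0.26 ± 0.13 (SD, n = 5 arrays each). The third, clone 3640, had an L1 of -0.19 ± 0.085 and an L2 of 0.32 ± 0.19, and its B73 arrays lay between -0.29 and -0.06.

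The 4 further GPC1 clones, 3805, 4189, 13561 and 8005, had L1 between -0.39 and -0.15 and L2 between 0.20 and 0.35. In each of them all 10 arrays had the signs of the set. The difference between forward and reversed B73 arrays passed in 3 of these 8 GAPDH clones, with the forward arrays further below 0. It was -0.47 (SE 0.098; limma adjusted p = 0.00942) in gpc2 clone 3817, -0.45 (SE 0.099; limma adjusted p = 0.0113) in GPC1 clone 3805 and -0.34 (SE 0.11; limma adjusted p = 0.0432) in gpc2 clone 7360. None of these 3 calls held with arrays scaled to 1 spread or without B73 array 4. Those of clones 3805 and 7360 were also lost without B73 array 5, and that of clone 7360 without any 1 of B73 arrays 2 and 3 and H99 arrays 2, 4 and 5.

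Other clones of the same genes did not all follow. The 5 other GPC1 clones had L2 from -0.10 to 0.31, positive in 4, and L1 from -0.37 to 0.10, negative in 2. The 4 other gpc2 clones had L2 between 0.048 and 0.19, all positive, and L1 between -0.30 and 0.22, negative in 1. Across all 19 GAPDH clones the median of L1 was -0.15 and that of L2 was 0.20, beside -0.01 and -0.0021 over all clones tested. The genes of this family are similar in sequence and the arrays were spotted with cDNA, so that signal from one gene on the clones of another cannot be told apart here.

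Alpha-tubulins are subunits of the microtubules that guide cell wall deposition and chromosome movement, and 5 clones of the first set belonged to them, namely 2 of the 16 tua3 clones and 3 of the 57 tua4 clones. Clone 3508 of tua3 had values of -0.54, -0.65, -0.57, -0.11 and 0.11 on the B73 arrays and of 0.17, 0.15, 0.25, 0.17 and 0.10 on the H99 arrays. Its forward B73 arrays lay far below 0 and its reversed ones on both sides of 0, a difference of -0.58 (SE 0.10; limma adjusted p = 0.00402), and 1 reversed B73 value overlapped the H99 arrays. Clone 7579 of tua3 gave -0.61 for the same difference (SE 0.14; limma adjusted p = 0.0123). Neither call held with arrays scaled to 1 spread, and that of clone 7579 was lost without B73 array 4.

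The tua4 clones 13825, 11146 and 14689 had L1 of -0.18 ± 0.22, -0.17 ± 0.19 and -0.19 ± 0.20 and L2 of 0.17 ± 0.12, 0.25 ± 0.13 and 0.15 ± 0.11 (SD, n = 5 arrays each). In each of the 3, at least 1 array went against the sign of the set. Of the 54 other tua4 clones 50 had a positive L2 and 24 a negative L1, and of the 14 other tua3 clones 11 had a positive L2 and 6 a negative L1. The 57 tua4 clones were thus mostly alike in L2, and split in L1. Among the 117 clones of 7 tubulin and actin genes 5 were members, all in the first set, and the list's median L1 was 0.03 and its median L2 0.12.

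Water channels and carbon metabolism gave single clones. PIP1-3, a plasma membrane intrinsic protein of the aquaporin family, was represented by 1 of its 7 clones, 13618. Its B73 arrays read -0.51, -0.47, -0.40, -0.13 and -0.19 and its H99 arrays 0.05, 0.23, 0.11, 0.23 and 0.15. The arrays did not overlap, and the forward B73 arrays were the lowest, with a difference of -0.30 (SE 0.098; limma adjusted p = 0.0497) that was lost with arrays scaled to 1 spread and without any 1 of the B73 arrays. The other 6 clones of PIP1-3 had a positive L2, between 0.016 and 0.11, but L1 was negative in only 1 of them.

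NIP2-3, of another branch of the aquaporin family, had a single clone, 3814. Its B73 arrays read -0.22, -0.37, -0.46, 0.0017 and -0.11 and its H99 arrays 0.37, 0.45, 0.38, -0.02 and 0.09. The forward arrays carried the pattern and the reversed arrays lay near 0 in both inbreds. In the order of the deposited rows this clone was next to gpc2 clone 3817 and within 3 clones of GPC1 clone 3805, both in the same set. With the median of the neighbouring clones on each array subtracted, its L1 was -0.20 and its L2 0.20, and all 3 of these clones still met the rule.

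Sucrose synthase sus1, which splits sucrose into fructose and UDP-glucose, had 1 of its 11 clones in the first set. Clone 14785 had an L1 of -0.19 ± 0.21 and an L2 of 0.15 ± 0.051 (SD, n = 5 arrays each), and its B73 values ran from -0.52 to -0.01. Its H99 arrays were close together, between 0.11 and 0.24, while B73 array 1 was the lowest of its group and B73 array 2 the nearest to 0. Of the 10 other sus1 clones 8 had a negative L1 and 5 a positive L2.

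The acidic ribosomal protein RP-P0, part of the stalk of the large ribosomal subunit, had 1 of 7 clones in the first set. Clone 1732 had values of -0.20, -0.31, -0.42, -0.14 and -0.12 on the B73 arrays and of 0.31, 0.23, 0.22, 0.20 and 0.08 on the H99 arrays. All 10 arrays had the signs of the set and the inbreds did not overlap, with an a of 0.22 (SE 0.043). The 6 other RP-P0 clones had L1 from -0.64 to 0.50, and none of them had both signs of the set. The remaining named clone was prp2 clone 6238, the only clone of its gene, with an L1 of -0.33 ± 0.24 and an L2 of 0.19 ± 0.17. With the median of the neighbouring clones on each array subtracted, its L1 was 0.11 and its L2 0.32. Its L1 then had the opposite sign, and the clone did not meet the rule.

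The second set held 9 named clones of 9 genes, and 5 of them were the only clone of their gene. Calcium signalling genes were CDPK2, a calcium-dependent protein kinase, and CaM1, a calmodulin that binds calcium. CaM1 clone 2998 had values of 0.36, 0.39, 0.37, 0.32 and 0.31 on the B73 arrays and of -0.22, -0.27, -0.40, -0.16 and 0.25 on the H99 arrays. Its 5 B73 arrays were nearly equal across both dye orientations, with an L1 of 0.35 ± 0.032, whereas 1 reversed H99 array lay above 0, and its L2 was -0.16 ± 0.25 (SD, n = 5 arrays each). The 8 other CaM1 clones had L1 from -0.18 to 0.37 and L2 from -0.08 to 0.16, and 2 of them had both signs of the set.

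CDPK2 clone 7258 had values of 0.18, 0.23, 0.42, 0.39 and 0.24 on the B73 arrays and of -0.25, -0.38, -0.36, 0.14 and 0.02 on the H99 arrays. The B73 arrays were all above 0, while the forward H99 arrays were below 0 and the reversed ones above it. This difference in H99 was -0.41 (SE 0.11; limma adjusted p = 0.0377), and it was lost when any 1 of H99 arrays 2 to 5 was left out.

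Regulators of development and chromatin were ZAG1, a MADS-box gene of the AGAMOUS group that acts in stamens and carpels, and MNB1b, an HMG-type DNA-binding protein. MNB1b clone 8452 had values of 0.34, 0.32, 0.35, 0.06 and 0.21 on the B73 arrays and of -0.32, -0.14, -0.11, -0.19 and -0.02 on the H99 arrays. It was the only named clone of the second set with the signs of the set on all 10 arrays, with an L1 of 0.25 ± 0.12, an L2 of -0.16 ± 0.11 and an a of -0.21 (SE 0.044). ZAG1 clone 8899 had 0.18, 0.24, 0.56, 0.01 and -0.07 on the B73 arrays and -0.22, -0.20, -0.15, -0.12 and -0.09 on the H99 arrays. All H99 arrays of ZAG1 were below 0, and its forward B73 arrays lay above its reversed ones by 0.36 (SE 0.11; limma adjusted p = 0.0396), a call that did not hold with arrays scaled to 1 spread or without any 1 of B73 arrays 3 to 5 or H99 arrays 2, 4 and 5. It was the only member among 26 clones of 8 meristem and floral regulators, whose median L1 was 0.08 and median L2 -0.03.

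Carbon metabolism was represented by 2 genes in the second set. The phosphoenolpyruvate carboxylase pepcZm2A adds bicarbonate to phosphoenolpyruvate, and me2, a malic enzyme, forms pyruvate from malate. Clone 2479 of pepcZm2A had values of 0.55, 0.40, 0.72, 0.37 and 0.13 on the B73 arrays and of -0.21, -0.31, -0.24, -0.12 and 0.09 on the H99 arrays. The inbreds did not overlap, although 1 reversed H99 array was above 0, and a was -0.30 (SE 0.054). None of the 4 other pepcZm2A clones had both signs of the set, and their L1 lay between -0.19 and -0.03.

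Clone 8434 of me2 had values of 0.52, 0.58, 0.67, -0.13 and 0.14 on the B73 arrays and of -0.19, -0.09, -0.12, -0.37 and -0.09 on the H99 arrays. All its H99 arrays were below 0, and its B73 mean came from the forward arrays. The forward B73 arrays exceeded the reversed ones by 0.59 (SE 0.11; limma adjusted p = 0.00676), which did not hold with arrays scaled to 1 spread or without B73 array 4. In this clone the B73 difference passed and the H99 difference did not, but the contrast between the inbreds did not pass either.

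The elongation factor 1-alpha gene elfa2, which brings aminoacyl-tRNA to the ribosome, had 1 of its 13 clones in the second set, and hsp70-5, a heat shock protein chaperone, 1 of 22. Clone 8587 of elfa2 had values of 0.30, 0.36, 0.46, 0.02 and 0.10 on the B73 arrays and of -0.39, -0.20, -0.26, -0.10 and 0.10 on the H99 arrays. The forward arrays were further from 0 than the reversed ones in both inbreds. The 12 other elfa2 clones had L1 from -0.38 to 0.46, positive in 5, and L2 from -0.15 to 0.09, negative in 9. Both signs of the set were present in 3 of them. For hsp70-5 clone 970 the B73 arrays read 0.33, 0.40, 0.30, 0.15 and 0.12 and the H99 arrays 0.03, -0.06, -0.74, -0.03 and 0.04. Its B73 arrays were all positive, but its L2 of -0.15 ± 0.33 came from H99 array 3 alone, and without that array it did not meet the rule. The 21 other hsp70-5 clones had L1 from -1.05 to 0.32, positive in 8, and L2 from -0.38 to 0.15, negative in 18. Of these 21, 7 had both signs of the second set.

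Over the genes with members, other clones had both signs of the same set in 32 of 99 cases for the first set (32.3%, beside 23.9% of all 5240 clones) and in 12 of 45 for the second (26.7%, beside 22.4%). In the first set 84 of the 99 other clones had a positive L2 and 44 a negative L1. The gene tua4 alone gave 54 of the 99, with 21 of the 32, 50 of the 84 and 24 of the 44. The counts of the first set thus rest largely on 1 gene. In the second set hsp70-5 gave 21 of the 45 other clones and 7 of the 12. All these other clones were left outside by the rule, and the shares are given without a test. Clones of a gene can overlap in sequence, so that they are not replicates of a condition.

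Of the lists of related genes, the chromatin list had 95 clones of 12 genes and no member, its HMG-type MNB1b being outside the list. The translation list had 78 clones of 12 genes with 1 member in each set, and the heat shock and chaperone list 49 clones of 6 genes with 1 member in the second. Calcium genes had 20 clones with 2 members in the second set, and the other glycolysis, fermentation and sucrose genes 31 clones with sus1 as the only member. Water channels had 14 clones with 1 member, PIP1-3, NIP2-3 not being in the list. For B73 the orientation difference passed in 3 GAPDH clones upward and 5 downward, and in 2 and 17 clones of tubulins and actins, beside 371 and 455 of all clones tested. For H99 limma called 0 of the 19 GAPDH clones, with 7 at an unadjusted p under 0.05 beside 1095 of the 5357, and it called 5 tubulin and actin clones, all downward, beside 59 upward and 172 downward of all clones tested.

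Among the members without a gene name, the 4 per set whose smaller mean was largest are described here. Clone 7204 of the first set had values of -0.32, -0.50, -0.61, -0.22 and -0.14 on the B73 arrays and of 0.50, 0.60, 0.57, 0.59 and 0.10 on the H99 arrays. All 10 arrays had the signs of the set, and the last reversed H99 array was the lowest of its group. It met the rule under all 23 alternatives tried, including both ways of reading the reversed arrays. Clone 14200 had an L1 of -0.40 ± 0.18 and an L2 of 0.36 ± 0.098 (SD, n = 5 arrays each), also with all arrays on their side of 0. Clones 13495 and 13678 had L1 of -0.45 ± 0.25 and -0.36 ± 0.28 and L2 of 0.35 ± 0.14 and 0.30 ± 0.077, and in both the forward B73 arrays were the lower ones.

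In the second set, clone 12172 had values of 0.27, 0.31, 0.25, 0.33 and 0.31 on the B73 arrays and of -0.47, -0.48, -0.32, -0.86 and -0.43 on the H99 arrays. All of its H99 arrays were below 0 in both dye orientations, with an L1 of 0.29 ± 0.033 and an L2 of -0.51 ± 0.20 (SD, n = 5 arrays each). Clones 5119, 1078 and 7135 had larger B73 means, 0.53, 0.36 and 0.36, but their forward H99 means of -0.54, -0.60 and -0.54 stood against reversed means of 0.08, 0.05 and 0.13. That H99 difference was -0.62 (SE 0.12; limma adjusted p = 0.0126) in clone 5119, -0.66 (SE 0.14; limma adjusted p = 0.0203) in clone 1078 and -0.67 (SE 0.15; limma adjusted p = 0.0221) in clone 7135. Each of these calls was lost without H99 array 4 and without H99 array 5.

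Membership depended on single H99 arrays mainly in the second set. Without H99 array 3 it held 19 clones, without array 4 it held 124 and without array 5 it held 185, whereas the first set stayed between 75 and 125 whichever array was left out. With both dye orientations weighted equally the first set had 77 clones and the second 27, and 17 of the 18 named clones of the first set but 2 of the 9 of the second were still members. With the local median of neighbouring clones subtracted 155 clones met the rule, 62 of them the same, and 12 of the 27 named clones remained, among them all 8 GAPDH clones. In the members as they stand, 18 of the first set and 4 of the second had another member of the same set within 3 clones in row order. Row order stands in for position here, and the number that sets of these sizes would give without clustering was not computed. The part of position on the array in membership was not tested.

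**Figure D5:**
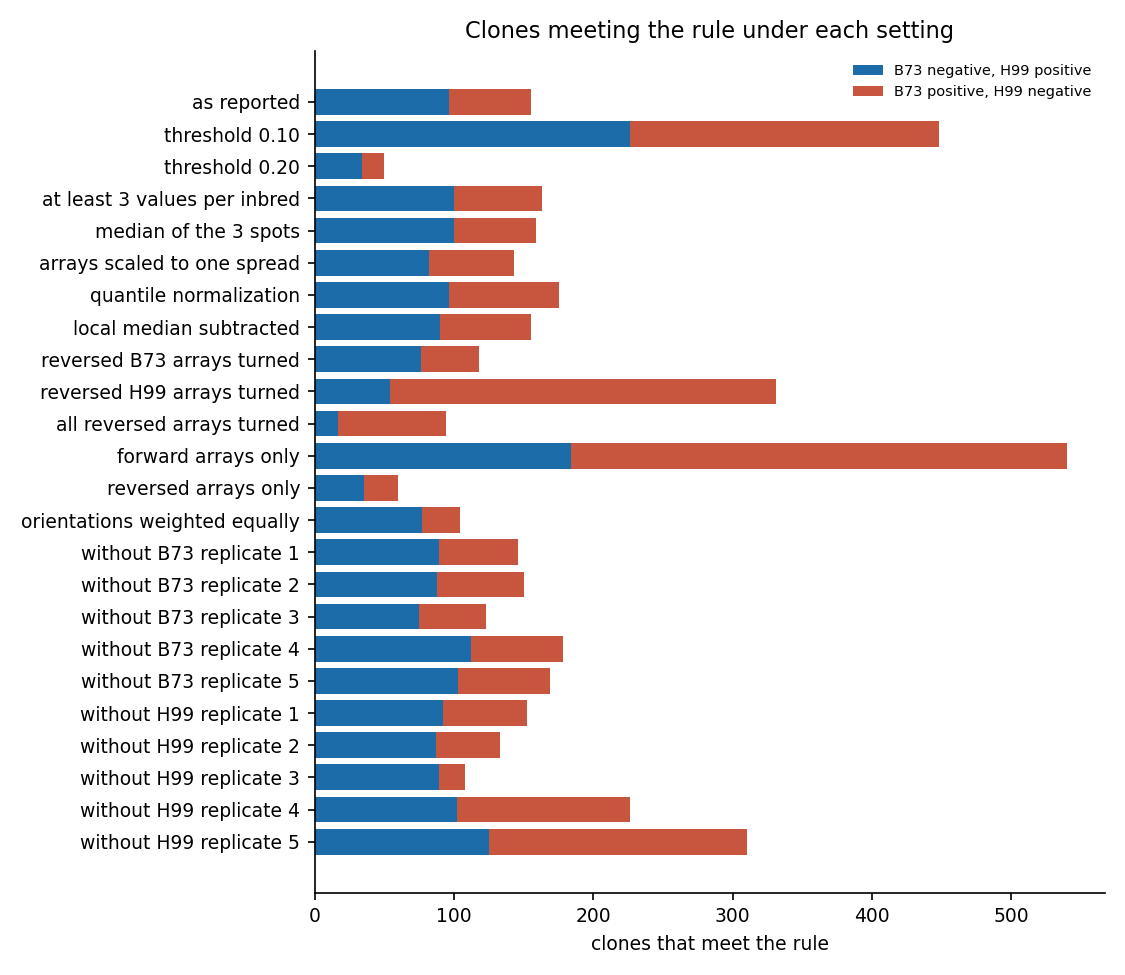
Number of clones that met the rule (horizontal axis) as reported and under each alternative, with the first set in blue and the second in red. The first set ran from 17 clones with all reversed arrays turned to 226 at a threshold of 0.10, and the second from 16 at a threshold of 0.20 to 356 on forward arrays only.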

How the data were processed

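Each spot of the 10 cDNA arrays had 1 deposited log2 ratio of hybrid and inbred, used as the authors left it. Array medians lay between -0.001 and 0. For the scanner, background correction and normalization the sources used here give nothing. Per the labels' protocols, Cy3 or Cy5 was incorporated during separate reverse transcriptions. Each 3 successive spots were averaged to 1 clone, which gave 5400 clones from 16200 spots. The platform annotation, which is old, named 811 clones with 1 gene and left 4589 unnamed. RefSeq's gene table (assembly Zm-B73-REFERENCE-NAM-5.0) held 208 of its 213 gene names and served for naming alone. No sequences are shown.

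The members and the lists of genes were chosen with earlier results of these data known. A clone was tested with at least 3 values per inbred and 1 per dye orientation, which left 5357. Both models were fitted to all 10 arrays in limma 3.58.1 (R 4.3.3), checked on simulated data, with Benjamini-Hochberg adjustment at 0.05. One had a mean per inbred (L1, L2, and from them d and a), and the other had a mean per inbred and dye orientation. The design text used SAM and an F-test. The contrast of the orientation difference between the inbreds was added after the data were seen. Errors are SD between arrays or SE from limma, and the number of arrays limits their precision. Named in the text were every member with 1 gene name except 1 that is not reported here, 4 unnamed members per set with the largest smaller mean, and the 2 clones nearest the threshold on each side. Gene lists were built from symbol stems and checked by hand, and list members were counted without a set test. Tables were handled with pandas 2.3.3 in Python 3.11.15. Alternatives were other thresholds, spot medians, array scaling, quantile normalization, local median subtraction over 3 clones on each side, turned or omitted reversed arrays, a dye term, a replicate block, unmoderated variances and leaving out each array.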

Additional observations from a re-analysis of the deposited data

Results flagged for a closer look

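Among the 70 groups of 5 arrays of the 35 named or described clones, 4 had an array set apart by Dixon's test. Its distance from the nearest other array, divided by the range of its group, was above the 95% critical value (0.71). Chance gives about 1 in 20. In tua4 clone 13825, H99 array 3 read -0.043, while the other 4 lay between 0.21 and 0.23. In hsp70-5 clone 970, H99 array 3 read -0.745, while the others lay between -0.06 and 0.04. In clone 7204, H99 array 5 read 0.095 beside 0.50 to 0.60 on the others, and in clone 1078, B73 array 3 read 0.639 beside 0.25 to 0.33.

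The forward minus reversed difference itself differed between the inbreds, H99 minus B73, in 9 of the described clones by limma, none of which passed with arrays scaled to 1 spread. The value was 0.609 in gpc2 clone 7360 (limma adjusted p = 0.0426), 0.666 in gpc2 clone 3817 (0.0342), 0.656 in NIP2-3 clone 3814 (0.0371), 0.671 in GPC1 clone 3805 (0.0342), 0.645 in tua3 clone 3508 (0.0371) and 0.736 in tua3 clone 7579 (0.0466). It was -0.596 in elfa2 clone 8587 (limma adjusted p = 0.0426), -0.773 in clone 1078 (0.0453) and -0.713 in clone 5119 (0.0417). The B73 difference was the larger in size in the gpc2, GPC1, tua3 and elfa2 clones, and the H99 difference in NIP2-3, clone 1078 and clone 5119. The part of the dyes and of the wider forward B73 arrays in these values was not tested.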

How the results depend on the processing

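The 155 members (96 in the first set, 59 in the second) became 448 (226, 222) at a threshold of 0.10 and 50 (34, 16) at 0.20, 540 (184, 356) on forward arrays only and 60 (35, 25) on reversed arrays only. They became 331 (54, 277) with the reversed H99 arrays turned and 94 with all reversed arrays turned, where the first set fell to 17; weighting the orientations equally left 27 in the second. Leaving out 1 array gave 108 to 310 members, 75 to 125 in the first set and 19 to 185 in the second. Under the other alternatives the total and both sets stayed within 1.5 times in number, but the clones changed more. Of the 155, 62 were still members after local subtraction, 74 with the reversed B73 arrays turned and 100 with scaled arrays. The number was 109 after quantile normalization, 142 with spot medians and 155 with at least 3 values per inbred. Of the 59 in the second set, 18 remained after local subtraction and 16 with the reversed B73 arrays turned. With a threshold of 0.10 or 0.20, 253 or 65 clones chosen on forward arrays kept both signs on the reversed arrays in place of 118, and 33 when the reversed arrays chose.

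For the B73 orientation difference 826 clones and 44 members passed, and 70 and 3 with scaled arrays, 67 and 6 after quantile normalization and 270 and 16 without moderation. For H99 the 231 clones and 20 members became 799 and 49 with scaled arrays, 906 and 52 after quantile normalization, 0 and 0 without moderation (958 and 60 at an unadjusted p under 0.05), and 399 clones after local subtraction. Leaving out 1 array gave 133 to 943 clones and 5 to 46 members for B73, fewest without B73 array 4, and 0 to 334 clones and 0 to 36 members for H99, fewest without H99 array 5.

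Among the members, calls of L1 fell from 112 to 49 with scaled arrays and 74 without moderation. Those of L2 went from 14 to 87 with a dye orientation term, 58 with scaled arrays and 2 without moderation, those of d from 2 to 21, 4 and 0 (6 at an unadjusted p under 0.05), those of both means from 10 to 86, 24 and 2, and those of a from 146 to 80 without moderation. Leaving out 1 array gave 61 to 122 for L1, 5 to 23 for L2, 0 to 12 for d, 114 to 151 for a and 5 to 18 for both. The arrays share replicate numbers across the inbreds, but same-numbered arrays correlated at -0.31 to 0.31 in their deviations and are not paired. With the replicate block 104 members passed for L1, 12 for L2, 2 for d, 138 for a and 10 for both. The causes of these changes were not tested.

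The values are ratios without intensities, so that the signal over background behind a clone is unknown, and no clone can be called weakly or strongly expressed. The 2 reversed arrays per inbred are the only check on the dyes.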
